A study of Mus musculus with 7 samples.

Results

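The 10 genes described here take up, store, export or sense iron, or encode the hormone hepcidin, in the mouse liver. They are the hepcidin paralogs Hamp and Hamp2, the exporter Slc40a1, the transferrin receptors Tfrc and Tfr2, the ferritin chains Fth1 and Ftl1, and Hfe, Bmp6 and Smad7 of the iron-sensing pathway. They were taken by gene symbol from the table of read counts, where each symbol named 1 gene, so they are 10 of the 56691 genes in the table. After genes with too few reads were removed, 13683 genes were tested, and all 10 were among them.

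Hepcidin is a small peptide hormone that hepatocytes secrete into the blood. It binds ferroportin, the iron exporter encoded by Slc40a1, and causes it to be degraded, so that iron stays inside macrophages, hepatocytes and gut cells. Transcription of hepcidin in the liver is known to be driven by BMP ligands acting through SMAD proteins when iron is plentiful, and by IL-6 acting through STAT3 during inflammation.

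The samples were whole livers of male C57BL/6J mice, an inbred laboratory strain, bought at 8 weeks of age and housed for 2 weeks. The LPS group (n = 3) received lipopolysaccharide, an endotoxin from the wall of Gram-negative bacteria, by intraperitoneal injection at 10 mg/kg and was killed 24 h later. The control group (n = 4) received no LPS, and whether these mice were given a vehicle injection is not given in the sources used here. Another group of the study, treated with sulforaphane before LPS, has no sample in this series and so was not analysed here. The comparison asked how iron genes of the liver differed between mice with endotoxin-induced liver injury and control mice.

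Reads counted on genes totalled between 14991022 and 18584140 in the control mice and between 17095607 and 20500391 in the LPS-treated mice. Levels are given as CPM, the counts of a gene relative to all counts of its library after edgeR's TMM scaling, and a gene was taken as detectable from 3 counts, which equal between 0.138 and 0.212 CPM. LPS replicates 2 and 3 were very alike. The SD of the log2 ratio between LPS replicates 2 and 3 was 0.10 over well-counted genes, against 0.29 to 0.58 in the other pairs of a group. Their variance was 3.82 times the counting noise, against 5.72 to 10.1 in the other pairs, and whether they came from 2 mice cannot be told from the counts. They were kept as separate samples, and values with both summed into 1 sample are given for the results that rest mainly on them. Mitochondrial genes took 23.7%, 14.6%, 7.48% and 8.96% of the counts in control replicates 1 to 4 and 6.45%, 3.83% and 3.94% in LPS replicates 1 to 3.

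In the liver of LPS-treated mice, Hamp2 was nearly lost while its paralog Hamp differed by less than the spread between mice. The transferrin receptor Tfrc and the iron-sensing gene Hfe were higher, and the SMAD inhibitor Smad7 was lower. A gene passed the test at an adjusted p below 0.05 in edgeR's quasi-likelihood test with Benjamini-Hochberg adjustment over all genes tested. By this rule 2 of the 10 genes were higher, 2 were lower and 6 did not pass. Over all genes tested, 13.3% were higher and 13.0% were lower, and whether the 10 genes differ from this background was not tested. The groups did not overlap in 5 of the 10 genes, against 35.4% of all genes tested. Hamp2 is among the lower genes and among these 5, but it passed the filter on low counts through the control group alone. Neither count is thus comparable with its share of all genes. The median log2 fold change was -0.20 over the 10 genes and -0.01 over all genes tested.

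**Figure D1:**
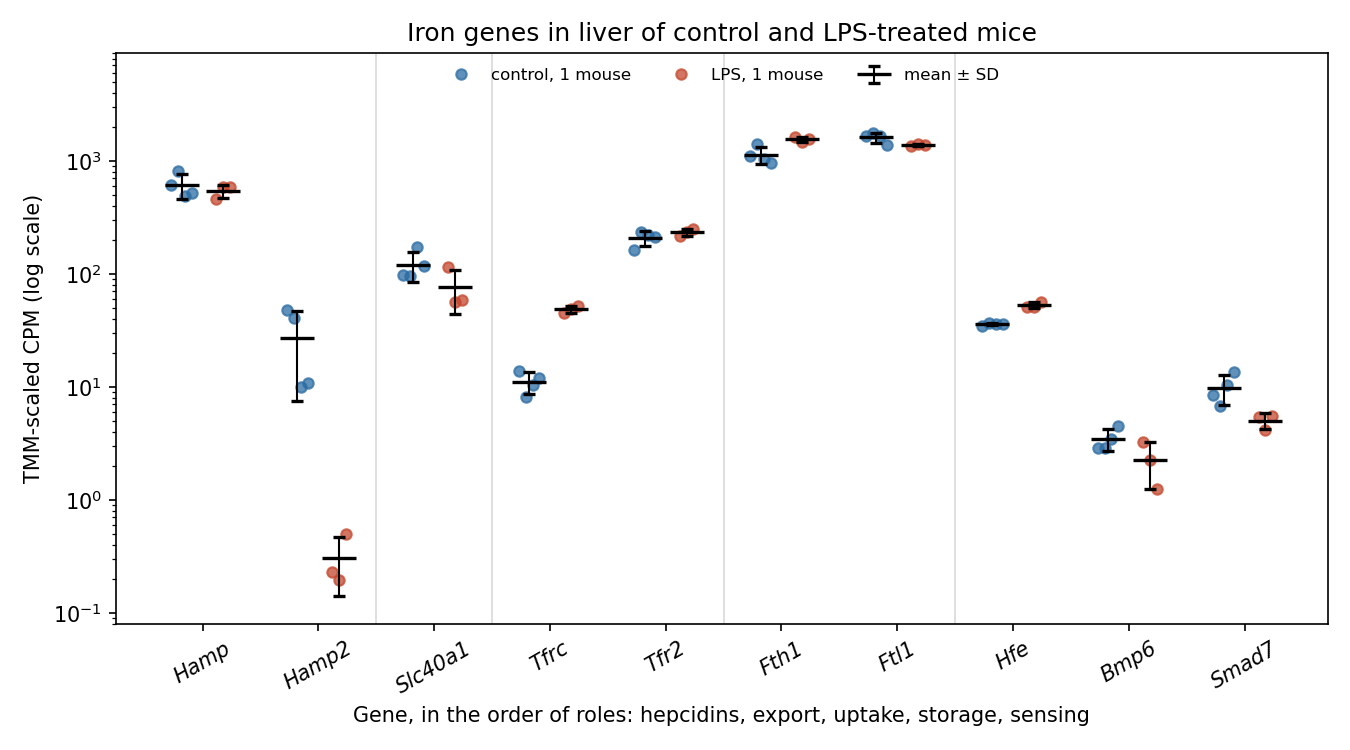
TMM-scaled CPM on a log axis for the 10 iron genes, with 1 point for each of 4 control and 3 LPS-treated mice and bars for the mean ± SD of a group. Hamp2 lies between 9.90 and 47.6 CPM in the control mice and at or below 0.498 CPM in the LPS-treated mice, and the points of Hamp overlap.

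Hamp (ENSMUSG00000050440) encodes the hepcidin that acts in iron metabolism. Its level was 615, 816, 489 and 521 CPM in control replicates 1 to 4 and 458, 581 and 589 CPM in LPS replicates 1 to 3. The LPS-treated mice lay within or just under the range of the control mice, of which control replicate 2 was the highest. The mean was 610.4 ± 147 CPM (SD, n = 4) in control and 543 ± 73.4 CPM (SD, n = 3) in LPS-treated mice. The log2 fold change of Hamp was -0.17 (SE 0.19, edgeR adjusted p = 0.572), and 2 SE on either side of it span -0.55 to 0.22. Without control replicates 1 and 2, an alternative chosen after seeing the data because these samples had the highest mitochondrial percent, its sign changed to 0.091 (edgeR adjusted p = 0.694).

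Hamp2 (ENSMUSG00000056978) lies beside Hamp on chromosome 7 and encodes a second hepcidin-like peptide. Control replicates 1 to 4 had 672, 639, 162 and 224 counts of Hamp2, and LPS replicates 1 to 3 had 5, 3 and 8 counts. As levels, these were 47.6, 40.3, 9.90 and 10.8 CPM in control and 0.230, 0.193 and 0.498 CPM in LPS-treated mice. The control mice formed a high pair, replicates 1 and 2, and a low pair, replicates 3 and 4, and every LPS-treated mouse was far below both. The mean was 27.2 ± 19.6 CPM (SD, n = 4) in control and 0.307 ± 0.166 CPM (SD, n = 3) in LPS-treated mice, an 87.6-fold lower level by the fitted log2 fold change of -6.45 (SE 0.74, edgeR adjusted p = 3.84e-05). Lower values were seen in 3 of 3 LPS-treated mice. LPS replicate 2 had just the 3 counts from which a gene was taken as detectable, and the others were not far above. The size of the fold thus rests on few reads. With LPS replicates 2 and 3 summed, the log2 fold change was -6.46 (SE 0.87, edgeR adjusted p = 0.000350).

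The high pair of control mice was also the pair with the most mitochondrial counts, at 23.7% and 14.6%. Without control replicates 1 and 2, the log2 fold change of Hamp2 was -5.08 (SE 0.41, edgeR adjusted p = 2.15e-05), so the call held and the difference was smaller. The part of mitochondrial content in the spread of Hamp2 among control mice was not tested. In whole liver, fewer cells of a type and less RNA per cell cannot be told apart, for Hamp2 as for the other genes below. How reads that match both paralogs were counted is not given in the sources used here, so the split of reads between Hamp and Hamp2 is uncertain.

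The paralogs were also set against each other within each library, from the same counts and so with the same uncertainty. Hamp2 made up 7.17%, 4.71%, 1.98% and 2.04% of the hepcidin counts in control replicates 1 to 4. In LPS replicates 1 to 3 it made up 0.0502%, 0.0332% and 0.0844%, with 95% exact binomial intervals of 0.0163% to 0.117%, 0.00686% to 0.0971% and 0.0365% to 0.166%, which cover counting error only. The groups did not overlap, and the highest LPS interval stayed under 1.69%, the lowest bound of a control mouse. The mean share was 3.98% ± 2.48 (SD, n = 4) in control and 0.0560% ± 0.0261 (SD, n = 3) in LPS-treated mice, a difference of -3.92 percentage points. By the exact 2-sided test, which permutes the mice in 35 ways, this difference had p = 0.0857, or 0.129 after adjustment over the 3 within-library and summed measures tested, and did not pass. On a log2 scale, chosen after seeing the data, the difference was -6.04 with an exact p of 0.0286, the smallest that 35 splits can give.

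The sum of both paralogs does not depend on how counted reads were divided between them, although reads that match both may have been left out of it. It was 663, 856, 499 and 532 CPM in control replicates 1 to 4 and 459, 581 and 590.0 CPM in LPS replicates 1 to 3. LPS replicate 1 was below all control mice, and LPS replicates 2 and 3 lay among them. On a log2 scale the mean was 9.28 ± 0.35 (SD, n = 4) in control and 9.08 ± 0.20 (SD, n = 3) in LPS-treated mice, a difference of -0.21 (exact permutation p = 0.486, adjusted p = 0.486). Hamp supplied most of the hepcidin counts in every mouse, so this sum followed Hamp more than Hamp2.

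Slc40a1 (ENSMUSG00000025993) encodes ferroportin, the exporter that releases iron from macrophages and hepatocytes. Its level was 97.6, 94.9, 174 and 117 CPM in control replicates 1 to 4 and 114, 56.9 and 58.5 CPM in LPS replicates 1 to 3. LPS replicates 2 and 3 were below every control mouse, whereas LPS replicate 1 lay within the control range. The mean was 121 ± 36.6 CPM (SD, n = 4) in control and 76.5 ± 32.6 CPM (SD, n = 3) in LPS-treated mice, with a log2 fold change of -0.66 (SE 0.27, edgeR adjusted p = 0.0948). Without LPS replicate 1 the log2 fold change was -1.06 (edgeR adjusted p = 0.00850), and without control replicate 3 it was -0.43 (edgeR adjusted p = 0.205). With LPS replicates 2 and 3 summed it was -0.49 (edgeR adjusted p = 0.323).

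LPS replicate 1 also stood apart in the markers of Kupffer cells and macrophages, which are cells rich in ferroportin. Their summed level over 13 genes was 152, 209, 195 and 132 CPM in control replicates 1 to 4 and 768, 173 and 179 CPM in LPS replicates 1 to 3. Of these 13 genes 6 were higher and 1 was lower in LPS-treated mice, against 13.3% and 13.0% of all genes tested. Marco, the most abundant of them by CPM over all mice, averaged 3.68 CPM in control mice, where Clec4f was the most abundant, and had 409.7, 66.5 and 65.6 CPM in LPS replicates 1 to 3. Among markers of resident Kupffer cells, named after their values were seen, Clec4f had 47.5, 69.9, 56.9 and 43.4 CPM in control replicates 1 to 4 and 24.1, 5.48 and 7.28 CPM in LPS replicates 1 to 3. Cd5l had 24.1, 45.0, 40.1 and 25.9 CPM in control and 75.8, 4.90 and 3.30 CPM in LPS-treated mice. In LPS replicates 2 and 3, Clec4f, Cd5l, Timd4 and Vsig4 were below every control mouse, while Marco, Spic, Cd68, Adgre1 and C1qb were above every control mouse. Of the 4 genes that were below, only Clec4f passed the test between groups. The part of macrophage content in the level of Slc40a1 was not tested.

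Tfrc (ENSMUSG00000022797) encodes transferrin receptor 1, which brings iron-loaded transferrin into cells. It had 13.9, 8.08, 10.3 and 12.0 CPM in control replicates 1 to 4 and 44.6, 48.9 and 51.9 CPM in LPS replicates 1 to 3. The groups were far apart, and the LPS-treated mice were close to each other. The mean rose from 11.1 ± 2.46 CPM in control (SD, n = 4) to 48.5 ± 3.67 CPM under LPS (SD, n = 3), a 4.38-fold higher level with a log2 fold change of 2.13 (SE 0.18, edgeR adjusted p = 2.59e-06). Summing LPS replicates 2 and 3 gave 2.11 (SE 0.21, edgeR adjusted p = 3.42e-05).

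Tfr2 (ENSMUSG00000029716) encodes transferrin receptor 2, which in hepatocytes serves as a sensor of transferrin-bound iron. It had 163, 233, 219 and 213 CPM in control replicates 1 to 4 and 214, 234 and 250.2 CPM in LPS replicates 1 to 3. The groups overlapped, with control replicate 1 the lowest mouse and LPS replicate 3 the highest. The mean was 207 ± 30.6 CPM (SD, n = 4) in control and 233 ± 17.9 CPM (SD, n = 3) in LPS-treated mice, with a log2 fold change of 0.17 (SE 0.15, edgeR adjusted p = 0.460). The difference between the fold changes of Tfrc and Tfr2 was not tested.

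Fth1 (ENSMUSG00000024661) encodes the ferritin heavy chain, which oxidises iron as it enters the ferritin shell. Its level was 1100.0, 1399.5, 1028 and 959.6 CPM in control replicates 1 to 4 and 1614, 1471 and 1556 CPM in LPS replicates 1 to 3. The lowest LPS-treated mouse was above the highest control mouse, although control replicate 2 came close to LPS replicate 2. The mean was 1122 ± 194 CPM (SD, n = 4) in control and 1547 ± 72.3 CPM (SD, n = 3) in LPS-treated mice, with a log2 fold change of 0.46 (SE 0.17, edgeR adjusted p = 0.0595) that did not pass. The same comparison passed in DESeq2, where the log2 fold change was 0.47 (SE 0.16, DESeq2 adjusted p = 0.0146), and in edgeR without control replicate 2, where it was 0.57 (edgeR adjusted p = 0.0232). It did not pass in the other 6 fits with 1 mouse left out, without scaling factors (edgeR adjusted p = 0.174) or with LPS replicates 2 and 3 summed (edgeR adjusted p = 0.138).

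Ftl1 (ENSMUSG00000050708) encodes the ferritin light chain, which helps iron to settle in the core of the shell. It had 1662, 1757, 1647 and 1381 CPM in control replicates 1 to 4 and 1351, 1408 and 1385 CPM in LPS replicates 1 to 3. Control replicate 4 lay among the LPS-treated mice and the other 3 control mice lay above them. The mean was 1612 ± 161 CPM (SD, n = 4) in control and 1382 ± 28.7 CPM (SD, n = 3) in LPS-treated mice, with a log2 fold change of -0.22 (SE 0.15, edgeR adjusted p = 0.325).

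The ratio of the ferritin chains within a library was compared as well. The log2 ratio of Ftl1 to Fth1 counts was 0.60, 0.33, 0.68 and 0.53 in control replicates 1 to 4 and -0.26, -0.062 and -0.17 in LPS replicates 1 to 3. Light chain counts exceeded heavy chain counts in all 4 control mice, and the reverse held in all 3 LPS-treated mice. These counts are not corrected for transcript length, which is 968 bases for Ftl1 and 1494 for Fth1. Divided by length, Ftl1 stayed above Fth1 in LPS replicates 1 to 3. It had 1396, 1455 and 1431 CPM per kb there, against 1081, 984 and 1042 CPM per kb for Fth1. The mean log2 ratio was 0.53 ± 0.15 (SD, n = 4) in control and -0.16 ± 0.097 (SD, n = 3) in LPS-treated mice, a difference of -0.69. Its exact permutation p was 0.0286, the smallest that the 35 splits can give, and 0.0857 after adjustment over the 3 measures, so it failed the correction. With LPS replicates 2 and 3 summed the difference was -0.72, and the smallest exact p that 15 splits can give is 0.0667.

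Ferritin genes have many processed copies in the genome. The table held 15 further genes whose symbols start with Fth or Ftl. Among them Ftl1-ps1 had 217, 246, 140 and 248 counts in control replicates 1 to 4 and 243, 108 and 228 counts in LPS replicates 1 to 3, and the other 14 had at most 2 counts in any mouse. With these copies added to each chain the difference of the log2 ratio was -0.69, as without them.

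**Figure D2:**
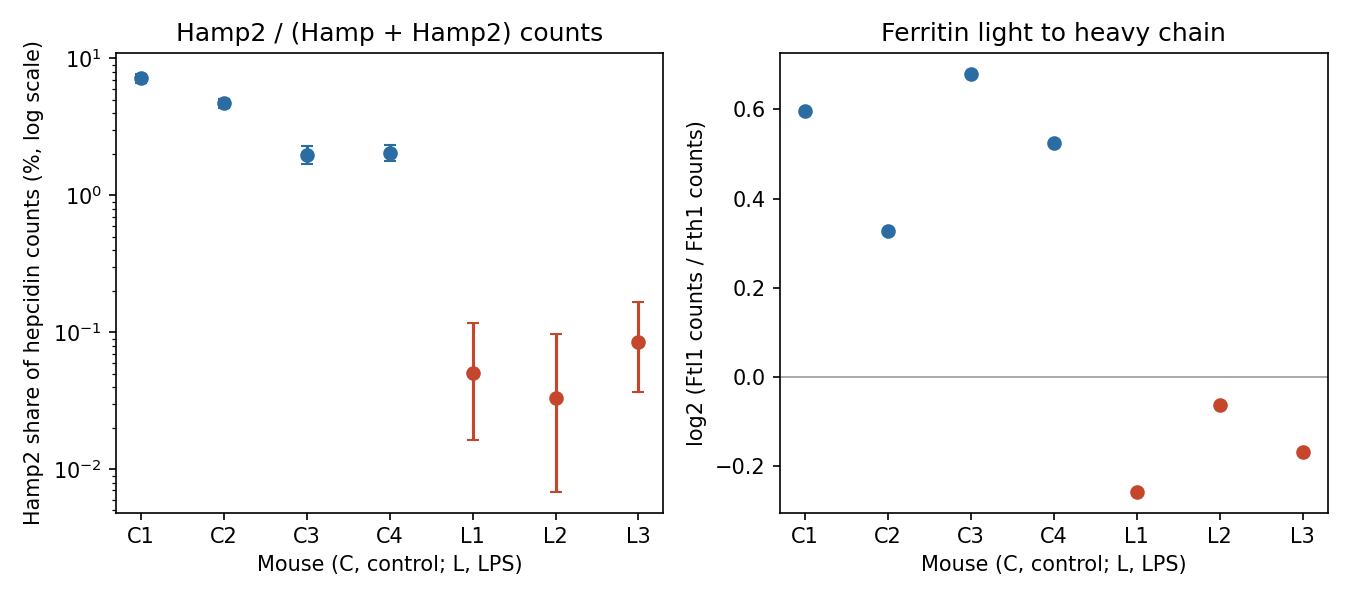
Left, the percent of hepcidin counts that fell on Hamp2 in each mouse, on a log axis, with 95% exact binomial intervals; right, the log2 ratio of Ftl1 to Fth1 counts in each mouse (C1 to C4, control replicates; L1 to L3, LPS replicates). The LPS-treated mice lie at or below 0.0844% on the left and below 0 on the right, and the control mice lie above them in both. The counts on the right are not divided by transcript length, so 0 does not mark equal levels of the chains.

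Hfe (ENSMUSG00000006611) encodes an MHC class I-like protein that binds transferrin receptors and takes part in iron sensing. It had 34.7, 36.4, 36.0 and 35.6 CPM in control replicates 1 to 4 and 51.3, 50.6 and 56.5 CPM in LPS replicates 1 to 3. The control mice were nearly equal, and every LPS-treated mouse was above them. The mean rose from 35.7 ± 0.743 CPM in control (SD, n = 4) to 52.8 ± 3.21 CPM under LPS (SD, n = 3), and its log2 fold change was 0.56 (SE 0.13, edgeR adjusted p = 0.00520). Summing LPS replicates 2 and 3 gave 0.57 (SE 0.15, edgeR adjusted p = 0.0264). Without scaling factors the log2 fold change of Hfe was 0.44 and narrowly missed the threshold (edgeR adjusted p = 0.0503). That setting moved the median of all genes from -0.01 to -0.13, and relative to this median Hfe stood at 0.57, against 0.58 with TMM scaling.

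Bmp6 (ENSMUSG00000039004) encodes the BMP ligand by which sinusoidal endothelial cells report iron stores to hepatocytes. It was low, with 2.90, 2.90, 3.48 and 4.50 CPM in control replicates 1 to 4 and 3.23, 2.25 and 1.25 CPM in LPS replicates 1 to 3. LPS replicates 2 and 3 were below all control mice and LPS replicate 1 was among them. The mean was 3.45 ± 0.754 CPM (SD, n = 4) in control and 2.24 ± 0.991 CPM (SD, n = 3) in LPS-treated mice, with a log2 fold change of -0.61 (SE 0.38, edgeR adjusted p = 0.270). These levels rest on 20 to 93 counts a mouse, and the log2 fold change was -0.98 without LPS replicate 1 and -0.33 without LPS replicate 3, passing in neither. Summing LPS replicates 2 and 3 gave -0.48 (edgeR adjusted p = 0.472).

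Smad7 (ENSMUSG00000025880) encodes an inhibitory SMAD that is induced by BMP signalling and represses hepcidin. It had 8.49, 6.75, 10.3 and 13.5 CPM in control replicates 1 to 4 and 5.44, 4.12 and 5.54 CPM in LPS replicates 1 to 3. All LPS-treated mice were below all control mice, and control replicate 2 was the nearest to them. The mean fell from 9.77 ± 2.88 CPM in control (SD, n = 4) to 5.03 ± 0.790 CPM under LPS (SD, n = 3), and its log2 fold change was -0.96 (SE 0.26, edgeR adjusted p = 0.0178). The call was lost with LPS replicates 2 and 3 summed, where the log2 fold change was -0.92 (edgeR adjusted p = 0.0558). It was also lost without control replicate 4 at -0.76 (edgeR adjusted p = 0.0572) and without LPS replicate 2 at -0.83 (edgeR adjusted p = 0.0840).

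Per length of transcript, the 10 genes spanned about 3 orders of magnitude in the control mice. Dividing by the length of the longest principal transcript in GENCODE M21, the level of Ftl1 was 1665 ± 167 CPM per kb (SD, n = 4) and that of Hamp was 1489 ± 359 CPM per kb, 2 neighbours that did not differ beyond their spread. Fth1 followed at 751 ± 130 CPM per kb. Tfr2 at 67.4 ± 9.97, Hamp2 at 62.1 ± 44.9 and Slc40a1 at 35.8 ± 10.8 CPM per kb came next, and the spread of Hamp2 covered both of its neighbours. Hfe had 9.99 ± 0.208 CPM per kb. Smad7 at 2.28 ± 0.674 and Tfrc at 2.26 ± 0.504 CPM per kb were alike within their spread, and Bmp6 was lowest at 0.959 ± 0.210 CPM per kb. In LPS-treated mice (n = 3) Hamp2 was ninth of the 10 genes at 0.703 ± 0.380 CPM per kb, beside Bmp6 at 0.624 ± 0.276, and Tfrc was seventh at 9.91 ± 0.751 CPM per kb.

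The genes with the profile most like Hamp and Hamp2 were sought among 7064 other genes that averaged 10 CPM or more. Likeness was the root mean square difference in log2(CPM + 0.5) over the 7 mice after subtraction of each gene's control mean. The 5 genes nearest to Hamp were Ddt, Pxmp2, Pemt, Bckdhb and Uqcrh, at differences of 0.083, 0.095, 0.096, 0.098 and 0.10 log2 units. Nearest to Hamp2 were Gamt, Gm13775, Cyp2c54, Cib3 and Cyp2c50, at 0.61, 0.67, 0.78, 0.82 and 0.83 log2 units. Gamt encodes a methyltransferase of creatine synthesis, and Cyp2c50 and Cyp2c54 are cytochrome P450 genes. Since these genes were chosen by their profile over the same 7 mice, their difference between the groups, or its absence, is not a separate result.

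The BMP and SMAD arm of hepcidin control was followed in a list of 26 genes in the table, of which 25 were tested. In LPS-treated mice 2 were higher, 5 were lower and 18 did not pass, against 13.3% higher and 13.0% lower over all genes tested, and the median log2 fold change was -0.39 against -0.01 over the same genes. Tmprss6, a membrane protease of hepatocytes that lowers hepcidin by cleaving the BMP co-receptor hemojuvelin, fell from 205 ± 31.9 CPM in control (SD, n = 4) to 83.6 ± 6.41 CPM under LPS (SD, n = 3), and its log2 fold change was -1.29 (SE 0.16, edgeR adjusted p = 7.35e-05). Smad9, one of the SMAD proteins that BMP receptors phosphorylate, fell from 13.1 ± 3.68 to 2.45 ± 0.994 CPM, a log2 fold change of -2.40 (SE 0.32, edgeR adjusted p = 0.000142). Bmp2, like Bmp6 a ligand from sinusoidal endothelial cells, had 10.97, 13.4, 10.57 and 11.1 CPM in control replicates 1 to 4 and 7.24, 2.19 and 2.05 CPM in LPS replicates 1 to 3, so that LPS replicate 1 lay between the other samples of its group and the control mice. The log2 fold change of Bmp2 was -1.56 (SE 0.38, edgeR adjusted p = 0.00939). It was -2.43 without LPS replicate 1 (edgeR adjusted p = 4.20e-05), -1.26 without LPS replicate 3 (edgeR adjusted p = 0.0430) and -1.31 with LPS replicates 2 and 3 summed (edgeR adjusted p = 0.0416). The other 2 genes that were lower, named after their values were seen, were the receptor gene Acvr2a and the SMAD target Id3, with log2 fold changes of -0.57 and -0.98. Id3 had 51.6, 51.9, 68.6 and 19.3 CPM in control replicates 1 to 4 and 23.5, 24.7 and 24.3 CPM in LPS replicates 1 to 3. The groups of Id3 overlapped, since control replicate 4 was below every LPS-treated mouse. Both calls were lost with LPS replicates 2 and 3 summed, Acvr2a at an edgeR adjusted p of 0.0700 and Id3 at 0.102. With 1 mouse left out, Id3 lost its call in 6 of 7 fits and Acvr2a in 2 of 7.

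Fkbp1a, whose product FKBP12 binds type I BMP receptors and restrains them, rose from 43.5 ± 5.05 CPM in control (SD, n = 4) to 73.5 ± 3.49 CPM under LPS (SD, n = 3), and its log2 fold change was 0.76 (SE 0.14, edgeR adjusted p = 0.00145). Furin, a protease that processes prohepcidin and hemojuvelin, was higher with a log2 fold change of 0.55 (SE 0.15, edgeR adjusted p = 0.0201). It did not pass with LPS replicates 2 and 3 summed (edgeR adjusted p = 0.0766) or in 3 of 7 fits with 1 mouse left out. Its call was also lost without scaling factors (edgeR adjusted p = 0.104) and without control replicates 1 and 2 (edgeR adjusted p = 0.0646). Erythroferrone (Erfe) had under 10 counts in every mouse and was not tested. With LPS replicates 2 and 3 summed, 1 gene of the list was higher and 3 were lower.

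In the IL-6 and STAT3 arm, 12 of 15 listed genes were tested, and 6 were higher, 2 were lower and 4 did not pass in LPS-treated mice, with a median log2 fold change of 0.88. Over all genes tested 13.3% were higher and 13.0% were lower, and whether this short list differs from them was not tested. Socs3, a STAT3 target that in turn inhibits the signal, rose from 7.03 ± 3.16 CPM in control (SD, n = 4) to 52.6 ± 11.9 CPM under LPS (SD, n = 3), and its log2 fold change was 2.90 (SE 0.32, edgeR adjusted p = 2.61e-05). Stat3 itself rose from 52.8 ± 12.7 to 166 ± 11.6 CPM, a log2 fold change of 1.66 (SE 0.18, edgeR adjusted p = 2.98e-05). Osmr, a receptor chain for oncostatin M, rose by 2.09 on the log2 scale (SE 0.28, edgeR adjusted p = 0.000138). So these genes of the arm rose at a time when Hamp did not differ beyond the spread between mice.

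Lifr, the receptor chain for leukemia inhibitory factor, fell from 413 ± 141 CPM in control (SD, n = 4) to 47.0 ± 6.64 CPM under LPS (SD, n = 3), and its log2 fold change was -3.13 (SE 0.25, edgeR adjusted p = 1.76e-06). Cebpa, a hepatocyte transcription factor that acts on the hepcidin promoter, had a log2 fold change of -0.53 (SE 0.14, edgeR adjusted p = 0.0127), but it did not pass with LPS replicates 2 and 3 summed (edgeR adjusted p = 0.0573) or in 2 of 7 fits with 1 mouse left out. The cytokine gene Il6, named after its values were seen, had 0, 7, 0 and 0 counts in control replicates 1 to 4 and 11, 9 and 10 counts in LPS replicates 1 to 3. It was removed by the filter on low counts, as were Osm and Lif, so these 3 genes have no test.

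Of 24 tested genes that move iron or haem 14 were higher, 4 were lower and 6 did not pass, with a median log2 fold change of 0.74. Beside them, 13.3% of all genes tested were higher and 13.0% were lower, and the difference from this share was not tested. Ltf, among the 14, had 0, 0, 0 and 2 counts in control replicates 1 to 4 and 53, 57 and 41 counts in LPS replicates 1 to 3. It passed the filter on low counts through the LPS group alone, so the count of higher genes is not comparable with this share. Lcn2, which binds iron-loaded siderophores of bacteria, rose from 9.82 ± 3.71 CPM in control (SD, n = 4) to 8306 ± 1487 CPM under LPS (SD, n = 3), and its log2 fold change was 9.73 (SE 0.35, edgeR adjusted p = 2.64e-09). Hpx, the plasma scavenger of free haem, rose from 3190.5 ± 401 to 32546 ± 5180.1 CPM, a log2 fold change of 3.35 (SE 0.22, edgeR adjusted p = 3.07e-07). Slc39a14, a carrier that takes up iron not bound to transferrin, had 82.6, 97.8, 92.0 and 88.7 CPM in control replicates 1 to 4 and 352, 368 and 372 CPM in LPS replicates 1 to 3. No LPS-treated mouse came near the control mice, and the log2 fold change was 2.01 (SE 0.13, edgeR adjusted p = 3.23e-07). Trf, named after its values were seen because transferrin is the ligand of both receptors above, rose from 12442 ± 2788 to 25323 ± 3828 CPM, a log2 fold change of 1.03 (SE 0.23, edgeR adjusted p = 0.00597).

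Slc25a37, the mitochondrial iron importer mitoferrin 1, fell from 40.8 ± 4.96 CPM in control (SD, n = 4) to 14.6 ± 2.89 CPM under LPS (SD, n = 3), and its log2 fold change was -1.48 (SE 0.17, edgeR adjusted p = 4.52e-05). Steap3, the reductase that acts on iron inside endosomes after uptake by Tfrc, had a log2 fold change of -0.69 (SE 0.16, edgeR adjusted p = 0.00677). Slc39a8, a metal carrier related to Slc39a14, had a log2 fold change of -0.59 (SE 0.16, edgeR adjusted p = 0.0173), and without LPS replicate 1 or 2 it did not pass (edgeR adjusted p = 0.0707 and 0.0830). The fourth gene that was lower, Slc46a1, a folate carrier that also takes up haem, was named after its values were seen and had a log2 fold change of -0.46 (edgeR adjusted p = 0.0443). Its call was lost whichever mouse was left out (edgeR adjusted p from 0.0580 to 0.154) and with LPS replicates 2 and 3 summed (edgeR adjusted p = 0.0941).

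Among regulators of iron inside cells, 15 of 16 listed genes were tested, and 2 were higher, 4 were lower and 9 did not pass, against 13.3% higher and 13.0% lower over all genes, with a median log2 fold change of -0.13. Ncoa4, the receptor that carries ferritin to lysosomes for breakdown, had 19.9, 17.7, 43.4 and 42.8 CPM in control replicates 1 to 4 and 92.9, 113 and 119 CPM in LPS replicates 1 to 3. Control replicates 3 and 4 were above control replicates 1 and 2, and the LPS-treated mice were higher still. The log2 fold change of Ncoa4 was 1.81 (SE 0.29, edgeR adjusted p = 0.000517). Fbxl5, the iron-sensing part of a ubiquitin ligase that removes iron regulatory protein 2, was higher by 0.51 on the log2 scale (SE 0.16, edgeR adjusted p = 0.0316). Its call was lost in 5 of 7 fits with 1 mouse left out (edgeR adjusted p up to 0.167), without scaling factors (0.113) and with LPS replicates 2 and 3 summed (0.112).

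Bdh2, an enzyme linked to the synthesis of a mammalian siderophore, fell from 16.4 ± 5.05 CPM in control (SD, n = 4) to 1.502 ± 0.616 CPM under LPS (SD, n = 3), and its log2 fold change was -3.44 (SE 0.33, edgeR adjusted p = 8.32e-06). Cisd1, an iron-sulfur protein of the outer mitochondrial membrane, fell from 124 ± 23.0 to 66.4 ± 6.41 CPM, a log2 fold change of -0.90 (SE 0.17, edgeR adjusted p = 0.00153). Aco1 encodes iron regulatory protein 1, which binds the messenger RNAs of Tfrc, Slc40a1 and both ferritin chains. It fell from 162 ± 31.8 to 97.4 ± 13.1 CPM, a log2 fold change of -0.74 (SE 0.18, edgeR adjusted p = 0.00841). The fourth gene that was lower, the cysteine desulfurase Nfs1, was named after its values were seen and had a log2 fold change of -0.47 (edgeR adjusted p = 0.0360). Its call was lost in 5 of 7 fits with 1 mouse left out (edgeR adjusted p up to 0.136) and with LPS replicates 2 and 3 summed (0.0896). Ftmt, which encodes mitochondrial ferritin, had 0 counts in every mouse.

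**Figure D3:**
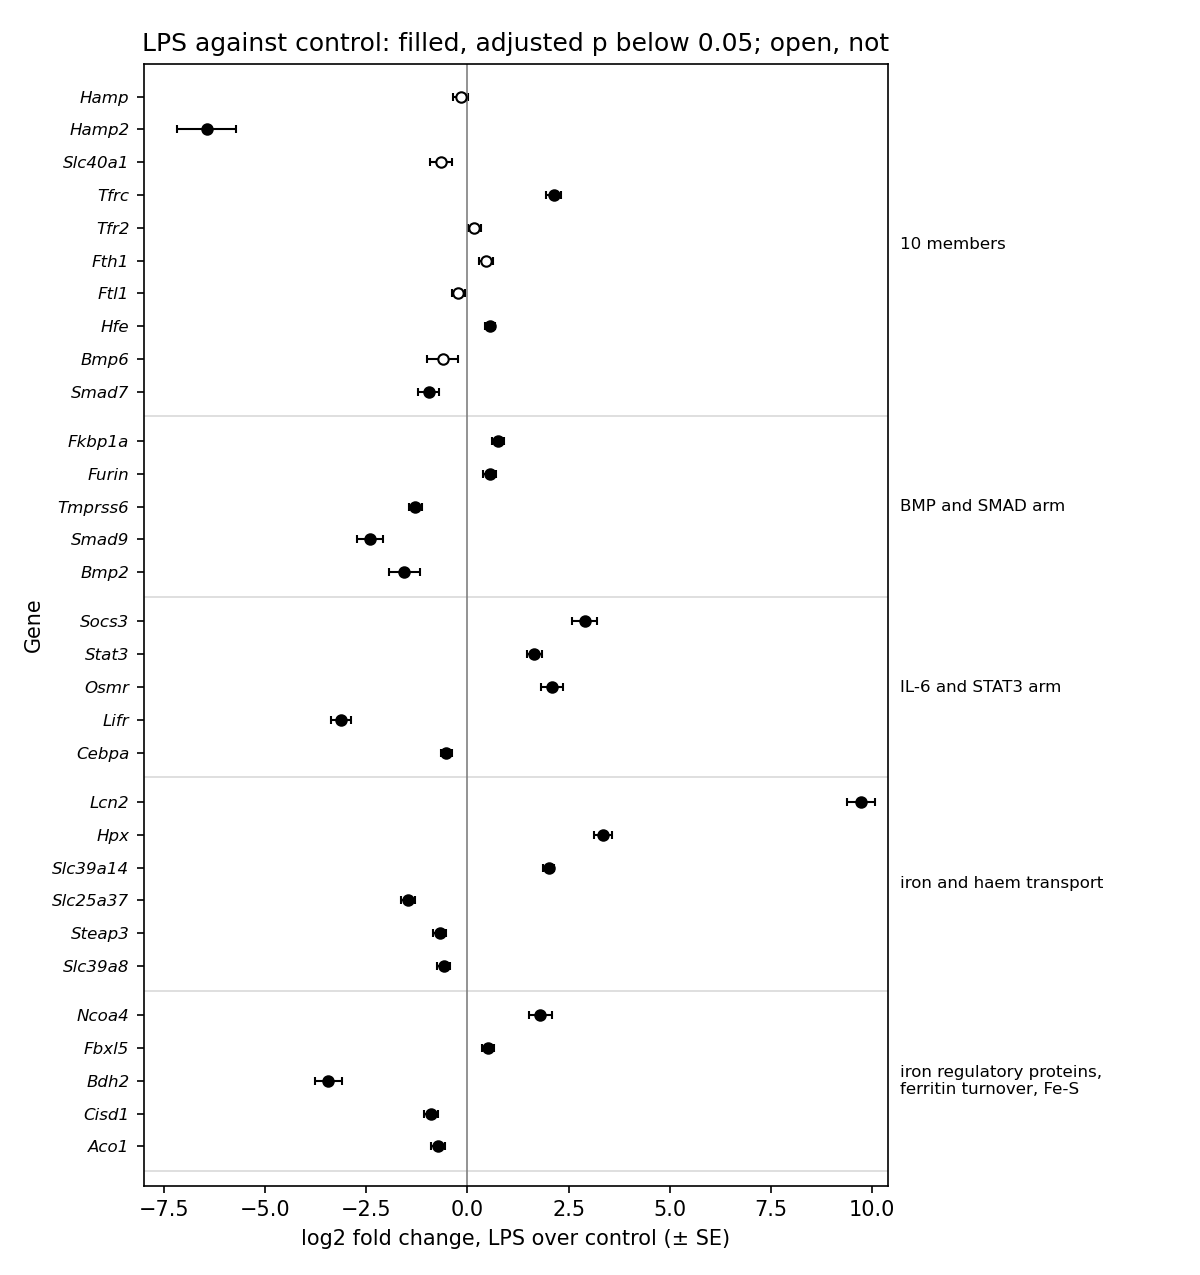
Log2 fold change of LPS over control ± SE from edgeR for the 10 iron genes and the genes named in 4 lists of the pathway, with filled points for an adjusted p below 0.05 and open points for the others. Hamp2 stands at -6.45 and Lcn2 at 9.73, and 6 of the 10 iron genes have open points.

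Markers of the liver's cell types were set beside these genes. For the counts below, 13.3% of all genes tested were higher and 13.0% were lower, and no marker list was tested against these shares. The summed level of 10 hepatocyte markers was 70263, 70007.5, 95249 and 83060.1 CPM in control replicates 1 to 4 and 49752, 55024.5 and 54804.5 CPM in LPS replicates 1 to 3. All LPS-treated mice were below all control mice in this sum, of which albumin (Alb), at 46978 ± 11470.1 CPM in control and 24665 ± 25.9 CPM under LPS (SD), was the most abundant gene by CPM. The markers did not move together. Of the 10 genes 2 were higher and 3 were lower, and their median log2 fold change was 0.18. Alb, Apoa1 and Ttr were lower, whereas Hnf4a and Tat were higher, all but Alb named after their values were seen. The part of hepatocyte content in the levels of the iron genes was not tested.

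Neutrophil markers summed to 5.24, 4.54, 2.02 and 2.85 CPM in control replicates 1 to 4 and 214, 156 and 158 CPM in LPS replicates 1 to 3. S100a9 was the most abundant of them in LPS-treated mice, whereas Ly6g, Mpo, Elane and Camp had under 10 counts in every mouse, with Ly6g at 0 in all control mice. The 7 neutrophil markers that were tested were all higher, but some, such as Ngp with 0 counts in every control mouse, passed the filter on low counts through the LPS group alone, so this count is not comparable with the share of all genes. Monocyte markers summed to 47.4, 48.2, 47.7 and 28.7 CPM in control and 212, 165 and 180 CPM in LPS-treated mice, with 5 of 7 higher and Lyz2 the most abundant. The monocyte markers did not move together. Ccr2 at a log2 fold change of 0.40 (edgeR adjusted p = 0.538) and Cx3cr1 at -0.39 (edgeR adjusted p = 0.664), named after their values were seen, did not pass. Tfrc, Hfe, Lcn2 and Slc39a14 moved the same way as the neutrophil and monocyte sums, and the part of neutrophils and monocytes in their levels was not tested.

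Sinusoidal endothelial markers, beside Bmp6 and Bmp2, summed to 181, 238, 147 and 185 CPM in control replicates 1 to 4 and 212, 128 and 128 CPM in LPS replicates 1 to 3. As for Bmp6, LPS replicate 1 lay within the control range and LPS replicates 2 and 3 lay below it. Of these 10 markers 2 were higher and 2 were lower, and the most abundant was Fcgr2b in control and Pecam1 in LPS-treated mice. Stellate cell markers summed to 498, 351, 223 and 355 CPM in control and 292, 249 and 237 CPM in LPS-treated mice, with 0 of 10 higher, 4 lower and Dcn the most abundant. The part of these cells in the levels of Bmp6 and Bmp2 was not tested.

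Erythroid markers, which stand for blood left in the tissue, summed to 308, 183, 233 and 179 CPM in control replicates 1 to 4 and 137, 53.9 and 53.8 CPM in LPS replicates 1 to 3. Of 5 tested erythroid markers 4 were lower and 0 were higher, and Hbb-bs was the most abundant. Tfrc, which erythroid precursors carry at a high level, rose while this sum was lower, and Slc25a37, another gene of red cell precursors, fell with it. Lymphocyte markers summed to 8.21, 7.70, 6.90 and 4.65 CPM in control and 2.53, 1.48 and 2.68 CPM in LPS-treated mice, with 2 of 5 tested genes lower and Cd4 the most abundant in control mice. The part of residual blood in the iron genes was not tested.

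Of the hepcidin paralogs only Hamp2 passed the test, and the sequences before both transcription starts are shown here. Windows from 250 bases before to 50 after the start, were taken from RefSeq on GRCm38.p6, and 8 of the 10 genes had such a window. They were searched on both strands for TTCNNNGAA, the letters bound by STAT proteins, and for GGCGCC, the core of the BMP-responsive element, motifs that do not overlap each other in these windows. Over 297 aligned positions, 276 were identical between Hamp and Hamp2, or 92.9%. The 150 bases before each start lie on the minus strand at chr7:30944030-30944179 for Hamp and at chr7:30924182-30924331 for Hamp2, and capitals mark the matches.
Hamp: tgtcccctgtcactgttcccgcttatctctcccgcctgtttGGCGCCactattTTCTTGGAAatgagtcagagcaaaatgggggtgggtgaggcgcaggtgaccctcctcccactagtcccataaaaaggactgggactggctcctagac
Hamp2: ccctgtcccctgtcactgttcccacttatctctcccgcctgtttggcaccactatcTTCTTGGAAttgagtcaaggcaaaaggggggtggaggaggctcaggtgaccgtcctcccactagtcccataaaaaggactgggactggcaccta
The letters TTCTTGGAA were present in both windows, at position -97 of Hamp and -94 of Hamp2, counted back from the start. GGCGCC was present in Hamp at position -109, and in Hamp2 the aligned letters carried the substitution G4A (Hamp base, position from 1 at the first base of the motif, Hamp2 base) and gave no match. Over 32851 windows of the same length, 8.30% held TTCNNNGAA, 11.9% held GGCGCC and 0.645% held both. Among the other genes with a window, 1 of the windows of Tfrc held GGCGCC, at position -89, and no window held TTCNNNGAA. Whether these letters bear on the levels of Hamp and Hamp2 was not tested.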

How the data were processed

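Per the deposited notes, the authors sequenced stranded poly(A) RNA on an MGISEQ2000, trimmed reads with cutadapt 1.9.1, aligned them to GRCm39 with HISAT2 2.2.1 and made read counts per gene with HTSeq 0.6.1. The gene annotation and the treatment of reads with several matches are not given in the sources used here. The table holds raw counts of 56691 genes. Here 4 control and 3 LPS-treated mice were compared in edgeR 4.0.16 under R 4.3.3 with TMM factors, its filter on low counts and a quasi-likelihood test, and adjusted p below 0.05 passed. SE is the absolute log2 fold change over the square root of F, and intervals are 2 SE. Within-library measures used a 2-sided exact permutation test.

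Members and lists were chosen with earlier results of these data known. In each pathway list the 3 genes with the smallest p past the test in each direction are named, in each cell type list the most abundant gene over all mice, and for each hepcidin paralog the 5 genes of the most similar profile. Alternatives tried were DESeq2 1.42.0, RLE factors, no factors, other filters on low counts, no mitochondrial genes, a replicate block, each mouse left out, LPS replicates 2 and 3 summed, and stricter thresholds. The code was tested on simulated data.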

Additional observations from a re-analysis of the deposited data

Results flagged for a closer look

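The summed level of monocyte markers in control replicate 4, at 28.7 CPM, lay apart from control replicates 1 to 3, at 47.4, 48.2 and 47.7 CPM. Its gap to the nearest mouse was 0.962 of the range of the group, above the 95% critical value of Dixon's test for 4 samples. In all, 22 groups of samples were tested this way, and chance flags about 1 in 20. The LPS-treated mice had 212, 165 and 180 CPM, all above the control mice. The cause was not tested.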

How the results depend on the processing

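With 3 or 4 mice a group and a least exact p of 0.0286, small differences could not be seen. The binomial intervals of the Hamp2 share and the floor of 3 counts cover counting error only, while SE includes the spread between mice. Of 825 log2 fold changes under other settings, 7 had the other sign. The calls of Hamp2 and Tfrc held wherever they were tested, and Hamp2 has no value with at least 10 counts in every sample, where the filter removed it.

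As a replicate block, the numbers in the sample titles gave 3234 genes past the test in place of 3598, changed no member's call, and left Hamp2 at -6.61 and Smad7 at -0.75. Fbxl5 lost its call at 0.52 (edgeR adjusted p = 0.0622), so 1 gene of the iron regulatory list was higher. In that list 3 genes were lower, without Nfs1. In the transport list 12 genes were higher and 3 were lower, without Slc46a1. Mice with the same number correlated at 0.28, -0.059 and 0.092, and mice with unlike numbers at -0.23 to 0.17. With so few mice, whether the numbers pair them cannot be told from these values.

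Without control replicates 1 and 2, chosen after seeing the data, signs turned for Hamp (0.091), Ddt (0.073), Pxmp2 (0.043), Bckdhb (0.14), Uqcrh (0.077) and the summed hepcidin level (0.067). None of these had passed the test. There Slc40a1 (-0.93) and Fth1 (0.63) passed, and the Hamp2 share differed by -1.95 points. The log2 of the Hamp2 share, also chosen after seeing the data, differed by -6.04. Slc40a1 passed with no filter on low counts (-0.65), and Fth1 passed in DESeq2 (0.47). Hfe missed the threshold without scaling factors (0.44) and, at 0.56, where a change of over 1 log2 unit was asked. Smad7 lost its call with LPS replicates 2 and 3 summed (-0.92), and at -0.96 it missed both stricter thresholds. The cause of these changes was not tested, apart from the stricter thresholds.

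Over the fits that lacked 1 mouse, log2 fold changes ranged from -1.06 to -0.43 for Slc40a1, 0.39 to 0.57 for Fth1, -1.11 to -0.76 for Smad7, -0.98 to -0.33 for Bmp6, -2.43 to -1.26 for Bmp2, -0.26 to -0.013 for Hamp, 0.067 to 0.23 for Tfr2 and -0.15 to 0.043 for Uqcrh. Genes past the test ranged from 2447 to 3774, and lower genes from 1146 to 1868. Lower members ranged from 1 to 3, higher and lower BMP genes from 1 to 2 and from 3 to 5, lower IL-6 genes from 1 to 2, lower transport genes from 2 to 3, and higher iron regulatory genes from 1 to 2.

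At an adjusted p below 0.01, 2084 genes passed, 1091 higher and 993 lower. There 1 member was lower, 1 BMP gene was higher and 3 lower, 1 IL-6 gene and 2 transport genes were lower, and 1 iron regulatory gene was higher. With a change of over 1 log2 unit, 2068 genes passed, 1068 higher and 1000 lower. There 1 member was higher and 1 lower, 0 BMP genes were higher and 3 lower, 1 IL-6 gene and 1 transport gene were lower, and 1 iron regulatory gene was higher and 1 lower. Without scaling factors 1350 genes were higher and 2057 lower, against 1825 and 1773 with TMM factors, and 1 member, 1 BMP gene and 1 iron regulatory gene were higher. With LPS replicates 2 and 3 summed, 2543 genes passed, 1348 higher and 1195 lower, and 1 member was lower, 1 BMP gene was higher and 3 lower, 1 IL-6 gene was lower and 1 iron regulatory gene was higher. With at least 10 counts in every sample, 1 member was lower.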
